A study of Mus musculus with 25 samples.

Results

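The 10 genes described here mark the mesenchymal cells of the liver and were followed through murine hepatoblastomas (HBs) and livers: Pdgfra, Pdgfrb, Lrat, Reln, Dcn, Lum, Des, Acta2, Tagln and Rgs5. They were chosen by name as markers of hepatic stellate cells, fibroblasts and pericytes, and all 10 were found among the 36333 genes of the count table. HBs arose in FVB mice after Sleeping Beauty delivery of Del90, a deletion mutant of β-catenin, and YAP S127A, a mutant of the Hippo pathway effector that stays in the nucleus. The HB labels also name xloc, which the sources used here do not explain, and the livers came from mice labelled as not injected. Mice were fed a diet with 10% DDDA (dodecanedioic acid, a dicarboxylic fatty acid) for 3 to 4 weeks or a normal (standard) diet, and RNA-Seq was performed on 5 DDDA HBs, 5 standard diet HBs, 5 DDDA livers and 5 standard diet livers. The oncogenes were delivered to hepatocytes of otherwise intact mice, so a bulk library holds tumor cells together with host cells. Tumor tissue was taken from regions that looked viable. DDDA HBs came from 1 male and 4 females, standard diet HBs from 3 males and 2 females, DDDA livers from 3 males and 2 females, and standard diet livers from 2 males and 3 females.

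Hepatic stellate cells lie between hepatocytes and sinusoidal endothelium and store vitamin A as retinyl esters. When they are activated they lose these stores, make fibrillar collagen and take on a contractile, myofibroblast-like form. Portal fibroblasts surround the bile ducts and vessels of the portal tract, and pericytes and vascular smooth muscle cells wrap capillaries and larger vessels. The 10 genes cover these states only in part, since most are shared by several mesenchymal cells, and in bulk RNA fewer cells of a type cannot be told apart from less RNA per cell.

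Total counts ranged over 18323912 to 29783324 in DDDA HBs, 16818785 to 19308728 in standard diet HBs, 18817404 to 23373175 in DDDA livers and 16548771 to 18348116 in standard diet livers. Levels are given as CPM (counts scaled to a common library size), adjusted by the TMM method over the 20 libraries, and the order of levels between genes was taken from the deposited TPM, which takes account of transcript length. Diet and sequencing run cannot be told apart, because libraries of the 2 diets never shared a flow cell, and no lane held both HBs and livers. Hepatocyte markers (7 genes) summed to a lower level in every HB than in any liver. Nothing in the labels says that replicates shared an animal, and each library name is its own.

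The promoters of Acta2 and Des are shown because these cytoskeletal genes parted from each other in individual DDDA HBs. Of the 10 genes, Des, Rgs5, Lrat, Reln, Pdgfra and Acta2 were matched in the promoter table (RefSeq, GRCm38.p6), which holds 250 bases before and 50 after each start. Acta2 lies on the minus strand at chr19:34255324-34255623 and Des on the plus strand at chr1:75360042-75360341. Capitals mark CArG boxes, the site of serum response factor, searched on both strands with at most 1 of the 6 central bases departing from A or T.
Acta2: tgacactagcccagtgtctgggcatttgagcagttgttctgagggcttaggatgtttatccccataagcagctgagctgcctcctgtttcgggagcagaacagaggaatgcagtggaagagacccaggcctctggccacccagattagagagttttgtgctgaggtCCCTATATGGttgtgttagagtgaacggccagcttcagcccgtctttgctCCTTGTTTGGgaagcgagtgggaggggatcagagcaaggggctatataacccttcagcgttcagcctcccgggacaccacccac
Des: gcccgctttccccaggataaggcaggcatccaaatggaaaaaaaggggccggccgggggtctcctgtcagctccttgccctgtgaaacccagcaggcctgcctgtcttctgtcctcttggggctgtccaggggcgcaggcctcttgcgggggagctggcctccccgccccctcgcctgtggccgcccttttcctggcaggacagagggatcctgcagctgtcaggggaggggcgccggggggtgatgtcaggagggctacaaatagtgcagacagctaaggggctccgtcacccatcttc
Acta2 had 2 such boxes, which began 84 and 34 bases before the start, and Lrat had 1, which began 223 bases before it, while the windows of Des, Rgs5, Reln and Pdgfra held none. Of 32851 promoters of the same length, 9.98% held a CArG box in this form, and 1.63% held one with no departure, among them none of the 6. The core of the muscle CAT element, CATTCC on either strand, was found in Acta2 and Lrat and in 14.7% of all promoters. These are matches of letters only.

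In the standard diet livers the set was led by a matrix gene and a pericyte gene. Dcn (decorin, a small leucine-rich proteoglycan that binds collagen and TGF-β) led with 68.1 ± 14.7 TPM, followed by Rgs5 (a regulator of G-protein signalling typical of pericytes) at 18.7 ± 3.45 TPM, Reln (reelin, a secreted glycoprotein) at 9.23 ± 1.77 TPM and Lrat (the enzyme that esterifies retinol for storage) at 8.54 ± 4.71 TPM (SD, n = 5 each). Dcn lay above the ranges of the other 9, while Reln and Lrat overlapped. The contractile genes were low, with Tagln (transgelin, an actin-binding protein) at 5.61 ± 3.31 TPM and Acta2 (α-smooth muscle actin) at 1.44 ± 0.80 TPM. In standard diet HBs the order of the means was different. Dcn was again first with 55.1 ± 8.03 TPM, but Lum (lumican, the neighbour and relative of Dcn) came next with 22.3 ± 4.91 TPM and Lrat was next to last with 3.87 ± 1.23 TPM.

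**Figure D1:**
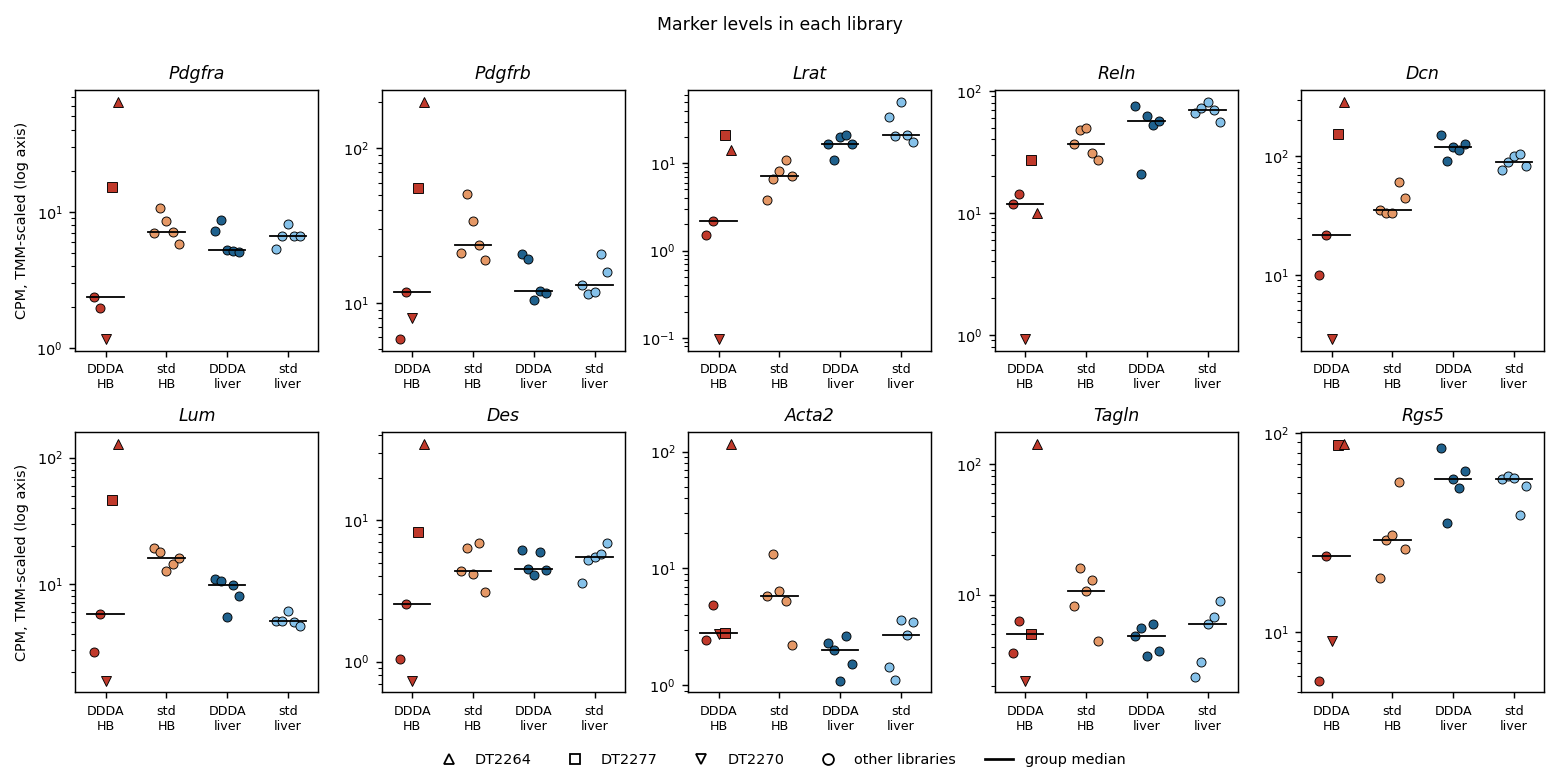
TMM-scaled CPM of the 10 markers in each of the 20 libraries, on log axes, 1 panel a gene, with DDDA HBs left of standard diet HBs, DDDA livers and standard diet livers; short lines are group medians, and triangles and squares mark DT2264, DT2277 and DT2270. DDDA HBs spread over much wider ranges than the other groups in every panel, with Dcn between 2.89 and 287 CPM in DDDA HBs, against 33.3 to 60.3 CPM in standard diet HBs.

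The first comparison asked how the mesenchymal markers of an HB differ from those of liver when neither is exposed to DDDA. The set did not move together. Lum, Pdgfrb and Acta2 rose in standard diet HBs and Lrat, Dcn, Reln and Rgs5 fell, while Tagln, Pdgfra and Des did not pass the test. Thus 3 of 10 markers were called higher and 4 of 10 lower, against 28.2% of all genes tested called higher and 26.8% called lower, so that the share is near the background and only the pattern among the 10 is described here. Their median log2 fold change was 0.07, against 0.02 over all 13830 genes.

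Lrat had 3.74, 6.60, 8.17, 11.0 and 7.05 CPM in the 5 standard diet HBs, against 34.1, 50.2, 21.2, 20.5 and 17.3 CPM in the 5 livers. Every HB was below every liver. The log2 fold change was −1.96 ± 0.34 (SE; edgeR adjusted p = 0.000486). Lum had 19.1, 18.0, 12.7, 14.4 and 16.003 CPM in standard diet HBs, against 5.09, 6.09, 4.98, 5.08 and 4.67 CPM in livers. Here every HB was above every liver, and the log2 fold change was 1.64 ± 0.15 (edgeR adjusted p = 5.10e-06).

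Dcn moved against Lum although the genes are neighbours on chromosome 10 (Dcn at chr10:97479500-97518163 and Lum at chr10:97565501-97572703, plus strand) and encode related proteoglycans. Its levels were 35.2, 33.5, 33.3, 60.3 and 44.6 CPM in standard diet HBs, against 76.8, 99.5, 105, 89.0 and 82.7 CPM in livers, with no overlap and a log2 fold change of −1.12 ± 0.18 (edgeR adjusted p = 0.000256). Reln averaged 38.3 ± 9.74 CPM in standard diet HBs and 68.8 ± 9.51 CPM in livers (SD, n = 5 each), again without overlap, for a log2 fold change of −0.84 ± 0.17 (edgeR adjusted p = 0.00176). These 4 genes gave the smallest two-sided p that an exact permutation test of 5 against 5 allows, 0.00794. They were the only markers without overlap, 4 of 10, against 41.5% of all genes tested.

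The receptors for platelet-derived growth factor (PDGF), which drives migration and division of activated mesenchymal cells, were not alike. Pdgfrb averaged 29.7 ± 13.1 CPM in standard diet HBs and 14.5 ± 3.84 CPM in livers (log2 fold change 1.04 ± 0.28, edgeR adjusted p = 0.00774), although the lowest HB, at 19.0 CPM, was below the highest liver, at 20.7 CPM. Pdgfra averaged 7.87 ± 1.85 CPM in standard diet HBs and 6.69 ± 1.02 CPM in livers, a difference within the spread of the libraries (edgeR adjusted p = 0.298). Acta2 had 5.86, 13.4, 6.40, 5.31 and 2.22 CPM in standard diet HBs, against 1.44, 3.59, 2.70, 1.10 and 3.50 CPM in livers, and was called (log2 fold change 1.42 ± 0.46, edgeR adjusted p = 0.0208). That call rested on s1799, the HB with 13.4 CPM, without which the adjusted p was 0.0609. Tagln followed the same direction with a log2 fold change of 0.94 ± 0.40 (edgeR adjusted p = 0.0628), and DESeq2 or sex as a covariate called it. Rgs5 averaged 32.3 ± 14.4 CPM in standard diet HBs and 54.5 ± 9.06 CPM in livers (log2 fold change −0.75 ± 0.26, edgeR adjusted p = 0.0271), but its adjusted p passed 0.05 when any of s1758, s1799, s1800, s2139, c4 or c12 was left out, with values up to 0.0623. Des, the intermediate filament of muscle and stellate cells, stood at 4.99 ± 1.59 CPM in HBs and 5.40 ± 1.21 CPM in livers.

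Directions between HB and liver are relative to the bulk of the genes. In the deposited TPM, the median of all genes tested was 0.78 higher in HBs than in livers on the log2 scale on either diet, against 0.02 in TMM-scaled CPM. In TPM as deposited, Reln and Rgs5 were therefore level between standard diet HBs and livers (differences of 0.0055 and 0.0396 on the log2(TPM + 0.5) scale). Relative to that median their differences were −0.77 and −0.74.

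**Figure D2:**
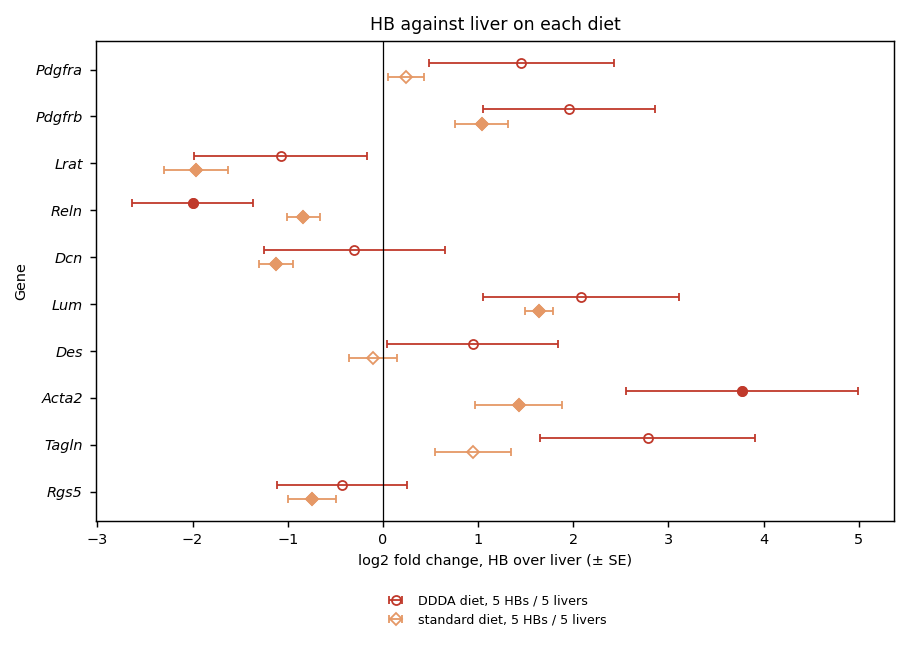
Log2 fold change of HB over liver with its SE from edgeR for the 10 markers, on the DDDA diet and on the standard diet with 5 HBs and 5 livers each; filled symbols have an adjusted p under 0.05. Lrat, Dcn, Reln and Rgs5 lie left of 0 on both diets, though of these only Reln is filled on DDDA. The SE of the DDDA comparison reaches 1.22 (Acta2).

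The same comparison on the DDDA diet gave 2 calls. Acta2 was higher in DDDA HBs than in DDDA livers (log2 fold change 3.78 ± 1.22, edgeR adjusted p = 0.0248) and Reln was lower (−1.998 ± 0.64, edgeR adjusted p = 0.0239). Thus 1 of 10 markers was called in each direction, against 26.3% of all genes tested called higher and 23.4% called lower. No marker separated the groups completely, against 37.6% of all genes tested. Reln had 11.7, 14.2, 0.93, 27.2 and 9.90 CPM in DDDA HBs, against 74.4, 20.6, 62.3, 52.2 and 56.1 CPM in DDDA livers, and the single overlap was between DT2277 (27.2 CPM) and DL02 (20.6 CPM). Without DL01, the liver with 74.4 CPM, its adjusted p was 0.0515.

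Acta2 had 2.43, 4.86, 2.74, 2.83 and 116 CPM in DDDA HBs, against 2.30, 1.99, 1.10, 2.66 and 1.53 CPM in DDDA livers. Of the HBs, 4 were above every liver, and DT2264 was far above the other 4. Without that library the log2 fold change was 0.78 (edgeR adjusted p = 0.0779), and the adjusted p also passed 0.05 without DL03 (0.0590), without DL05 (0.0569) and with sex as a covariate (0.179). For the other markers the fold change depended on which HBs were averaged. Dcn, for example, differed by −0.30 ± 0.95 in edgeR, which compares averages, whereas the mean of log2(CPM + 0.5) over DDDA HBs minus that over DDDA livers was −1.89.

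Spread among the DDDA HBs was the main feature of the set. The SD of log2(CPM + 0.5) over the 5 DDDA HBs had a median of 2.18 over the 10 markers (1.61 for Reln to 2.67 for Dcn), against 0.48 in standard diet HBs, 0.37 in DDDA livers and 0.29 in standard diet livers. Over the 14502 genes kept the median SD was 0.35 in DDDA HBs, 0.27 in standard diet HBs, 0.23 in DDDA livers and 0.24 in standard diet livers. All 10 markers were in the upper 10.0% of genes for spread among DDDA HBs, from the 96.9th percentile (Reln) to the 99.8th (Dcn), whereas 2 were in that share in standard diet HBs, 1 in DDDA livers and 3 in standard diet livers. These are descriptions with no test. The spread had been seen in earlier results of these data, so for none of the 10 markers is it independent evidence. Lum, Tagln, Pdgfra and Acta2 are also among transcripts that the study listed for a difference between these DDDA HBs and others.

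DT2264 was the highest of the 5 for 8 markers and DT2277 for the other 2, against 27.4% and 11.0% of all genes kept. DT2264 and DT2277 were the highest pair for 7 of the 10, against 13.1% of genes. DT2270 was the lowest for 7 markers and DT3167 for 3, and 1 of these libraries was the lowest for 36.3% of genes. For 6 markers (Pdgfra, Pdgfrb, Lrat, Dcn, Lum and Des) DT2264 and DT2277 lay above all 5 standard diet HBs while DT2270, DT3167 and DT3168 lay below all 5, so that no DDDA HB was within the standard diet range. This arrangement was found in 0.807% of all genes kept. It was picked out after the values were seen and is given with no test.

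The matrix genes showed it most plainly. Dcn had 287 CPM in DT2264, 155 in DT2277, 21.5 in DT3168, 10.0 in DT3167 and 2.89 in DT2270, a range of 99.3-fold, against 1.81-fold among standard diet HBs. Lum had 128, 46.1, 5.73, 2.91 and 1.71 CPM in the same order of libraries. Both genes thus ranked the 5 HBs alike, with DT2264 first and DT2270 last. Pdgfrb had 199 CPM in DT2264, 55.3 in DT2277, 11.8 in DT3168, 5.86 in DT3167 and 7.97 in DT2270, and Pdgfra 63.8, 15.2, 1.98, 2.39 and 1.17 CPM. For both PDGF receptors DT2264 was several-fold above DT2277, by 3.60 for Pdgfrb and 4.21 for Pdgfra. Des had 34.7 CPM in DT2264, 8.22 in DT2277, 2.55 in DT3168, 1.04 in DT3167 and 0.73 in DT2270. Des was the filament gene that kept to this order, unlike Acta2 and Tagln.

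**Figure D3:**
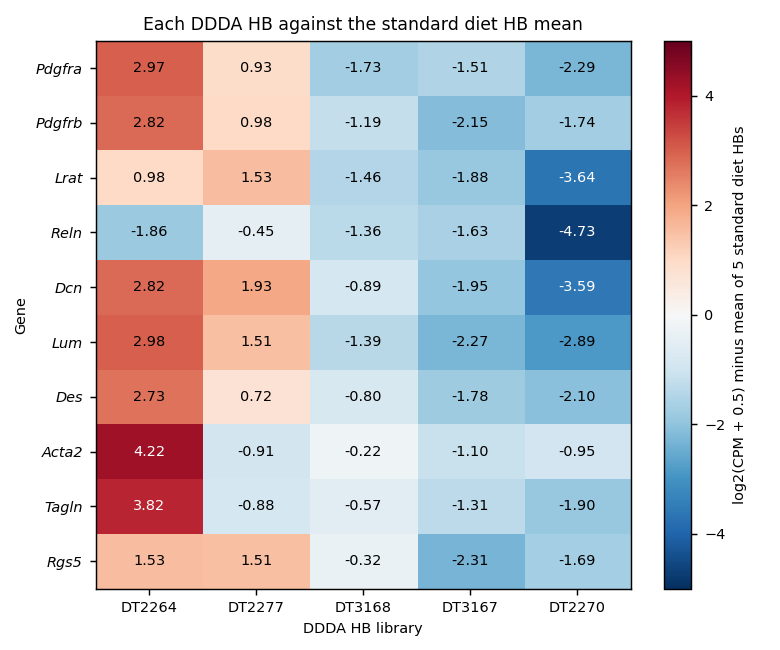
Log2(CPM + 0.5) of each marker (rows) in each DDDA HB (columns) minus the mean of the 5 standard diet HBs; red is higher and blue lower. DT2264 is above that mean for every marker but Reln (−1.86), DT2277 is below it for Reln, Acta2 and Tagln, and DT3168, DT3167 and DT2270 are below it throughout.

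The 2 HBs with the most marker RNA did not share 1 profile. Acta2 had 116 CPM in DT2264 and 2.83 CPM in DT2277, and Tagln 142 CPM in DT2264 and 4.97 CPM in DT2277, so that DT2277 lay with the 3 low HBs for Acta2 and Tagln, though not for Des. Across all 20 libraries DT2264 exceeded the next highest by 8.69-fold for Acta2 and by 8.96-fold for Tagln. Lrat was the reverse, at 21.0 CPM in DT2277 and 14.2 CPM in DT2264, against 2.20, 1.52 and 0.10 CPM in DT3168, DT3167 and DT2270. The value in DT2270 was 2 counts, and the ratio of DT2277 to it, 214, had an exact 95% interval of 59.1 to 1775 that covers counting error only. Rgs5 was equal in both, with 88.4 CPM in DT2264 and 86.9 CPM in DT2277, and had 24.0, 5.69 and 9.002 CPM in DT3168, DT3167 and DT2270. Reln, at 9.90 CPM in DT2264 and 27.2 CPM in DT2277, was below all 5 standard diet HBs in every DDDA HB.

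Other genes of the same cells were counted by list. Of the other stellate cell genes, 14 were kept, and 11 of these were highest in DT2264 and 3 in DT2277. Colec11, a collectin of quiescent stellate cells and among the latter, was 1.26 above the standard diet HB mean in DT2264 and 1.57 above it in DT2277 on the log2 scale. Lhx2 (1.45 in DT2264 and 1.34 in DT2277), Ecm1 (2.99 and 1.58) and Tcf21 (1.74 and 1.52) were higher in DT2264. Vim (vimentin) was 3.93 above the standard diet HB mean in DT2264 and 0.38 in DT2277. Nes (nestin) was 2.83 above it in DT2264 and −1.18 in DT2277. Of 12 genes for fibrillar matrix, 11 were highest in DT2264 and none in DT2277. Col1a1 was 3.59 above the standard diet HB mean in DT2264 and −0.08 in DT2277, while Postn (periostin) was above it in both, by 3.80 and 1.68. Of 13 kept contractile genes, 9 were highest in DT2264. Genes of this list above the standard diet HB mean in DT2264 included Tpm2 (3.42), Myl9 (2.86), Actg2 (2.21) and Lmod1 (1.61). Cnn1 (1.47) and Myh11 (0.56), which are typical of mature smooth muscle, were also above it. Mylk (−0.27), Cald1 (−0.31) and Mkl2 (−0.37) were below it.

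**Figure D4:**
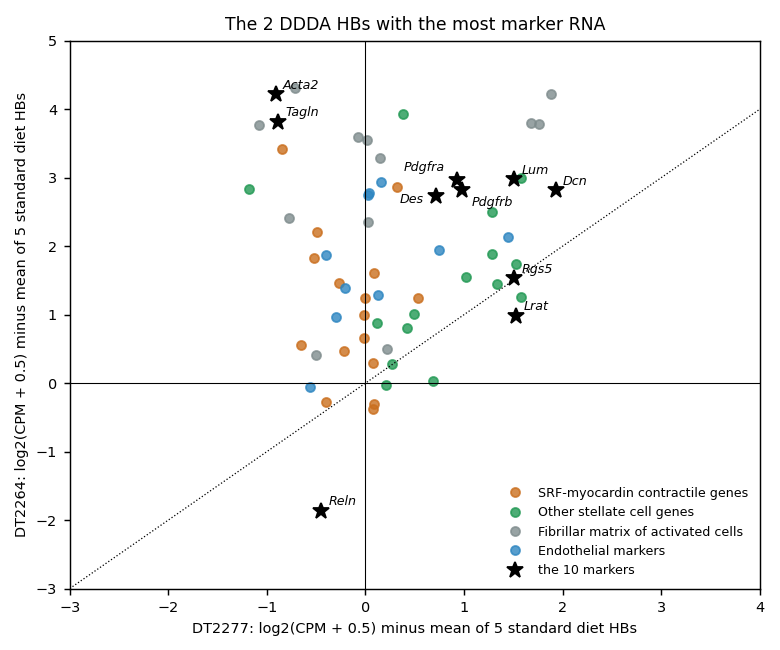
Log2(CPM + 0.5) minus the mean of the 5 standard diet HBs in DT2264 (vertical) against DT2277 (horizontal) for the 10 markers (stars) and for genes of 4 other lists (dots); the dotted diagonal marks equal values. Acta2 and Tagln stand at the upper left, at 4.22 and 3.82 in DT2264 and −0.91 and −0.88 in DT2277, and Lrat lies below the diagonal, at 0.98 in DT2264 and 1.53 in DT2277.

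Markers of several other cell types moved with these HBs, and those of others did not. The 10 endothelial markers were all highest in DT2264, where they summed to 719.7 CPM, against 52.3 to 205 CPM in the other DDDA HBs and 122 to 256 CPM in standard diet HBs, with none at 0. The 4 erythroid markers were also all highest in DT2264, where they summed to 12662 CPM, with 5599 CPM in DT2277, against 173 to 1506 CPM in the other DDDA HBs and 506 to 2980 CPM in standard diet HBs. The 4 cholangiocyte markers summed to 157 CPM in DT2264 and 163 CPM in DT2277, against 33.9 to 57.8 CPM in the other DDDA HBs and 72.4 to 195 CPM in standard diet HBs. The 5 neutrophil markers summed to 121 CPM in DT2264 and 115 CPM in DT2277, against at most 2.41 CPM in the other DDDA HBs and 2.33 to 11.8 CPM in standard diet HBs. The 4 mesothelial markers summed to 25.3 CPM in DT2264 and 9.63 CPM in DT2277, against at most 3.12 CPM in the other DDDA HBs. Their part in the result was not tested. Skeletal muscle markers (8 genes) summed to 5.48 CPM in DT2264, against at most 1.02 CPM in the other DDDA HBs and up to 5.42 CPM in standard diet HBs, and adipocyte markers (4 genes) to 0.08 CPM in DT2264 and to 0 in the other DDDA HBs. Hepatocyte markers summed to 18882 CPM in DT2264, the lowest DDDA HB, and to 41417 CPM in DT2277, the highest. The sum in DT2264 was within the 16529 to 32780 CPM of standard diet HBs. Macrophage and lymphocyte markers summed to 321 CPM in DT2264 and 302 CPM in DT2277, against 90.8 to 229 CPM in the other DDDA HBs. Both sums were within the 138 to 421 CPM of standard diet HBs. Of the 7 genes of this list, 4 were highest in DT2264 and 3 in DT2277. Airway epithelium markers were highest in DT2270, at 14.4 CPM, followed by DT2264, at 12.96 CPM. Both sums were above the 2.47 to 8.77 CPM of standard diet HBs. The sums were 7.94 CPM in DT3167, 3.898 CPM in DT2277 and 0.631 CPM in DT3168.

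The comparison of DDDA with standard diet HBs called none of the 10 markers by edgeR, against 0.298% of all 14082 genes tested, and none by DESeq2, which gave no adjusted p for Acta2 and Tagln. Only Reln had an unadjusted p under 0.05. It averaged 12.8 ± 9.49 CPM in DDDA HBs and 38.3 ± 9.74 CPM in standard diet HBs (log2 fold change −1.59 ± 0.59, edgeR adjusted p = 0.232), and its highest DDDA HB (27.21 CPM) was just under its lowest standard diet HB (27.26 CPM). It was the only marker without overlap, 1 of 10, against 4.52% of genes, and in CPM without TMM factors the groups overlapped.

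In livers the diet changed little in this set. Lum averaged 8.91 ± 2.24 CPM in DDDA livers and 5.18 ± 0.54 CPM in standard diet livers (log2 fold change 0.79 ± 0.20, edgeR adjusted p = 0.0374), which made 1 of 10 markers higher and none lower, against 4.27% and 3.07% of all genes tested. No marker separated the 2 groups of livers, against 8.97% of genes. Lum was 5.42 CPM in DL03, within the range of standard diet livers. Its adjusted p passed 0.05 when any library other than DL03 was left out, with values up to 0.0988. Dcn averaged 120.3 ± 21.8 CPM in DDDA livers and 90.6 ± 11.7 CPM in standard diet livers (0.42 ± 0.13, edgeR adjusted p = 0.0802) and was called by DESeq2. Lrat averaged 16.97 ± 3.88 CPM in DDDA livers and 28.7 ± 13.6 CPM in standard diet livers (−0.76 ± 0.29, edgeR adjusted p = 0.134). For a difference between HB and liver in the response to diet, 0 of 10 markers were called by edgeR, against 0% of all 14502 genes tested. None of the 10 had an unadjusted p under 0.05, and DESeq2 called none of the 8 to which it gave an adjusted p (none was given for Acta2 and Tagln), while over all genes 877 had such a p and DESeq2 called 7 higher and 4 lower.

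Within a library, a ratio between markers is free of the amount of mesenchymal RNA only if both come from the same cells. Whether they do was not tested. In CPM, which leaves gene length as the same factor in every library, the ratio of Dcn to Lum was 3.36, 3.75, 3.45, 1.69 and 2.23 in DT2277, DT3168, DT3167, DT2270 and DT2264, and 1.84, 1.86, 2.61, 4.18 and 2.79 in the standard diet HBs. In DDDA livers it was 13.9, 8.67, 22.0, 11.6 and 15.95, and in standard diet livers 15.1, 16.3, 21.2, 17.5 and 17.7. The highest HB was thus below the lowest liver, also among DDDA HBs, in which neither gene alone separated the tissues. Of the 45 pairs among the 10 markers, chosen after their values were seen, 4 had ratios without overlap between all 10 HBs and all 10 livers, and each set Lum or Pdgfrb against Dcn or Lrat. The ratio of Pdgfrb to Lrat was 2.14 to 81.5 in HBs (at most 14.0 without DT2270, which had 2 counts of Lrat) and 0.23 to 1.74 in livers, that of Pdgfrb to Dcn was 0.36 to 2.76 in HBs and 0.09 to 0.21 in livers, and that of Lrat to Lum was 0.06 to 0.76 in HBs and 1.05 to 8.24 in livers. Of all genes kept, 2.66% had a ratio to Lum and 6.62% a ratio to Dcn that separated HBs from livers in this way. By their own level 20.9% did so, and none of the 10 markers.

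**Figure D5:**
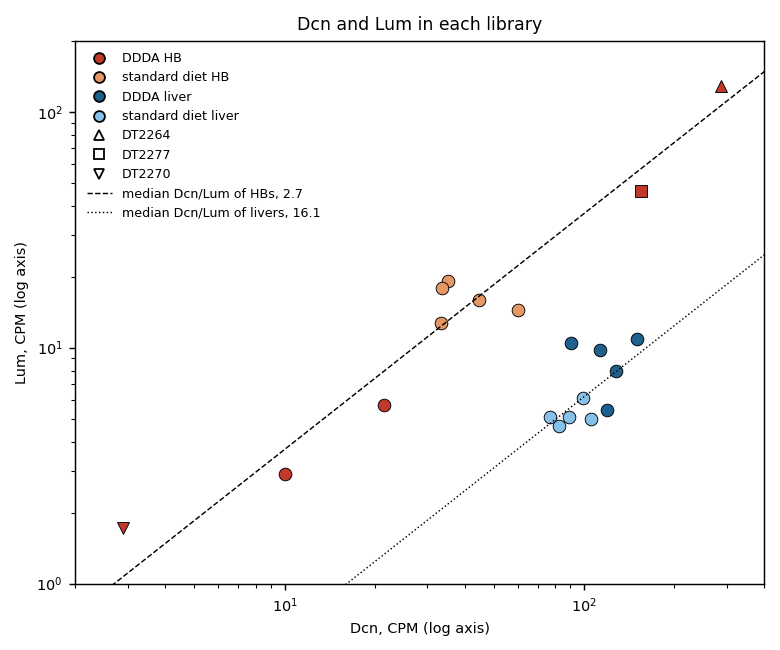
Dcn (horizontal) against Lum (vertical) in CPM in each library, on log axes; the lines mark the median ratio of Dcn to Lum in HBs (2.70) and in livers (16.1). The 10 HBs, whose Dcn ranged over 99.3-fold, lie along the first line, and the 10 livers lie along the second.

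Partner genes of the markers were counted on both diets, and each count stands against 26.3% of all genes called higher and 23.4% lower on DDDA, and 28.2% higher and 26.8% lower on the standard diet. Of 5 genes for PDGF ligands and a related receptor, 5 were tested on the standard diet and 4 on DDDA. On each diet 4 were higher in HBs than in livers of the same diet, and none was lower. Pdgfb averaged 39.6 ± 11.7 CPM in standard diet HBs and 2.19 ± 0.71 CPM in livers (log2 fold change 4.17, edgeR adjusted p = 7.58e-07). Pdgfc averaged 35.7 ± 8.17 CPM in DDDA HBs and 5.04 ± 1.47 CPM in DDDA livers (2.86, edgeR adjusted p = 2.64e-05), and Pdgfa was higher on both diets (2.62 and 1.74 for standard and DDDA). Of the receptors, Pdgfrb was called higher on the standard diet and not on DDDA, and Pdgfra was called on neither.

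Of 6 TGF-β ligands and receptors, which drive stellate cell activation, 3 were higher in HBs on each diet and none was lower. Tgfb2 averaged 21.7 ± 16.3 CPM in DDDA HBs and 0.60 ± 0.14 CPM in DDDA livers (log2 fold change 5.19, edgeR adjusted p = 4.01e-05), and on the standard diet its log2 fold change was 4.60. Tgfb3 had log2 fold changes of 3.54 on DDDA and 3.60 on the standard diet. Of 12 genes for fibrillar matrix, 7 were higher in DDDA HBs and 8 in standard diet HBs, with none lower. Sparc averaged 848 ± 354 CPM in DDDA HBs and 120.3 ± 37.0 CPM in DDDA livers (2.85, edgeR adjusted p = 0.000108), and Timp1, the inhibitor of matrix metalloproteinases, had a log2 fold change of 5.70 (edgeR adjusted p = 0.00400). Without DT2264, 4 of the 12 were called higher in DDDA HBs, and the log2 fold changes on DDDA were 3.79 for Timp1 and 2.61 for Tgfb3.

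Of the 15 other stellate cell genes, 13 were tested, of which 3 were higher and 8 lower in standard diet HBs. Ecm1 averaged 17.8 ± 5.32 CPM in standard diet HBs and 132 ± 38.6 CPM in livers (log2 fold change −2.88, edgeR adjusted p = 7.23e-06), and Lhx2, a transcription factor that keeps stellate cells quiescent in mice, had a log2 fold change of −2.21 (edgeR adjusted p = 0.000154). On DDDA, 1 was higher (Vim, 3.21) and 1 lower (Cxcl12, which averaged 187 ± 51.1 CPM in DDDA HBs and 482 ± 52.3 CPM in DDDA livers). Without DT2264 the log2 fold change of Vim was 1.06 (edgeR adjusted p = 0.0555), and its call was also lost without DL03 (edgeR adjusted p = 0.0548), DL04 (0.0535) or DL05 (0.0543). Without DT2264, 0 of the 13 were higher and 2 lower. Of 8 genes for vitamin A handling 5 were tested, with 1 higher and 3 lower on the standard diet and 1 higher and 2 lower on DDDA. Rdh10, a retinol dehydrogenase, fell on both diets (−1.05 on DDDA and −1.15 on the standard diet), and Dgat1 was lower in standard diet HBs (−0.49).

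Reelin acts through the receptors Lrp8 and Vldlr and the adaptor Dab1. Dab1 averaged 84.1 ± 28.3 CPM in DDDA HBs and 5.25 ± 1.71 CPM in DDDA livers (log2 fold change 4.04, edgeR adjusted p = 1.89e-05), with a value of 4.48 on the standard diet. Lrp8 was higher on both diets (2.59 and 2.35 for DDDA and standard). Its levels were low, with means of 1.42 CPM in DDDA HBs and 0.23 CPM in DDDA livers. Vldlr was tested and called on neither diet, while the ligand Reln was lower on both. Of 16 contractile genes and their regulators, 12 were tested on DDDA and 11 on the standard diet, and 6 were higher on each with none lower. Smtn (smoothelin) had log2 fold changes of 2.30 on DDDA and 1.26 on the standard diet, Mkl1, a cofactor of serum response factor, 0.98 on DDDA, and Tpm1 1.38 on the standard diet. Of the other pericyte genes, 6 were tested, with 3 higher on the standard diet, 1 higher on DDDA and none lower. Mcam was higher on both diets (3.91 on DDDA and 2.81 on the standard diet) and Kcnj8 on the standard diet (0.69). Without DT2264 the log2 fold change of Mcam on DDDA was 1.97. Of the other portal fibroblast genes, 9 were tested on DDDA, with 3 higher and none lower, and 8 on the standard diet, with 4 higher and 1 lower (Dpt, −2.28). Entpd2 (2.11 and 2.47) and Cd34 (3.15 and 2.78) were higher on DDDA and the standard diet, and without DT2264 that of Cd34 on DDDA was 1.98. Of the other small leucine-rich proteoglycans Prelp was lower in standard diet HBs (−0.62).

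The genes whose profile over the 20 libraries lay nearest to the mean profile of the 10 markers, among 13051 genes with a mean of at least 1 CPM, were Rcn3, Abcc9, Pear1, Adgra2 and Gucy1b3, with root mean square differences of 0.26, 0.30, 0.32, 0.34 and 0.34 on the log2 scale. Abcc9, a subunit of the potassium channel of pericytes, had 131 CPM in DT2264, 59.6 CPM in DT2277 and 5.87 CPM in DT2270, and averaged 26.8 CPM in standard diet HBs. Nearest to Acta2 were Ltbp2, Tagln, Ch25h, Cd248 and Fbln2 (0.35, 0.42, 0.42, 0.42 and 0.46). Ltbp2, a matrix protein related to the latent TGF-β binding proteins, had 57.5 CPM in DT2264, 2.06 CPM in DT2277 and 1.66 CPM in DT2270. Tagln is 1 of the 10 markers and lies over Pcsk7, a gene on the other strand with up to 54.0 CPM, whose reads could be shared with it if strand was not used in counting, which was not tested.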

How the data were processed

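The RNA-Seq libraries used (NEBNext Ultra Directional kit, RIN above 8.5) were 5 in each of 4 groups. The 5 HBs after long-term DDDA were not analysed here. The table deposited by the authors gives whole-number read counts per gene, which are not normalized, beside TPM values, scaled by the authors to gene length and library total. The build was GRCm38.p6, per the submitters' processing notes. Neither the aligner nor the strand setting of the counting is stated in the sources at hand. The authors' own columns of fold changes and p-values, RPKM and CPM were not used.

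Each pair of groups was fitted alone with the quasi-likelihood test of edgeR 4.0.16 in R 4.3.3 with limma 3.58.1. Genes were filtered with filterByExpr, libraries scaled with TMM factors, and p-values adjusted by Benjamini-Hochberg over all genes left, with a threshold of 0.05. The difference in response to diet used all 4 groups. All 10 markers passed the filter in every comparison. CPM shown were scaled over 20 libraries, spread was computed on log2(CPM + 0.5), and single markers were compared by two-sided exact permutation tests. Fits were tested on simulated counts with the same spread in every group. That could not show how they behave where groups differ in spread, as with DDDA HBs. No pair of libraries of a group agreed within sampling noise. Tables and figures were made with Python 3.11.15, pandas 2.3.3 and matplotlib 3.10.9. The lowest of 40 pairs had a chi-square of 15.3 per gene.

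The markers and gene lists were chosen with earlier results of these data known. The text names the 10 markers, up to 2 genes of each partner list with the smallest p past the threshold in either comparison of HB with liver, genes of other cell types whose level moved with a marker, and the 5 genes nearest in profile to the mean of the markers and to Acta2. A gene that this rule selects is not reported here. Several genes in single HBs were chosen after their values were seen, as were ratios between markers. These genes were Colec11, Lhx2, Ecm1, Tcf21, Nes, Vim, Col1a1, Postn, Myl9, Myh11, Cnn1, Tpm2, Actg2, Lmod1, Mylk, Cald1 and Mkl2. The alternatives tried were a robust prior, sex as a covariate, RLE scaling, no filter beyond 1 count, DESeq2 1.42.0, a joint fit of all 20 libraries, the omission of each library, and that of DL03 and DT3168, which had a flow cell of their own. A pseudocount of 2, scaling over DDDA HBs alone and CPM without TMM factors were also tried. Added after seeing the data were differences in deposited TPM and fits without DT2264 and either DT2277 or DT2270. These HBs were picked by their marker levels, so those fits are no test of the markers.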

Additional observations from a re-analysis of the deposited data

Results flagged for a closer look

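Of 40 sets of 5 libraries (10 markers in 4 groups), 4 held a library far from the other 4, by the gap to its neighbour as a share of the whole range on the log2(CPM + 0.5) scale, and chance alone would give about 1 in 20. Acta2 in DDDA HBs had a gap of 0.84 of the range, between DT2264 (116 CPM) and DT3168 (4.86 CPM), and Tagln one of 0.77, between DT2264 (142 CPM) and DT3168 (6.31 CPM). Reln was low in the DDDA liver DL02, at 20.6 CPM (gap 0.72), and Rgs5 in the standard diet liver c17, at 39.0 CPM (gap 0.73). DL02 was also the DDDA liver with the lowest Lrat, Dcn and Rgs5 and with the highest sum of neutrophil markers, at 69.0 CPM, against a median of 1.04 CPM in that group. Their part in the low Reln was not tested.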

How the results depend on the processing

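No paired analysis was possible because replicate numbers only follow the order of the samples and the labels link no libraries by animal. RLE scaling and a robust prior changed no call of a marker. Between HBs and livers on the standard diet, a fit of all 20 libraries together, which shares 1 estimate of the spread with the DDDA groups, called 0 markers higher and 1 lower (Lrat), against 3 and 4 in the fit reported, and the other 6 kept their sign. On the DDDA diet the number of markers called higher, 1 in the fit reported, was 2 with DESeq2 (Pdgfrb and Lum, with no adjusted p for Acta2 or Tagln), 4 with all 20 libraries together, and 0 with sex as a covariate or without DL03 and DT3168. The number called lower, 1 in the fit reported, was 0 without DL03 and DT3168. Leaving out each library in turn gave 0 to 3 markers higher and 0 to 1 lower. Between livers of the 2 diets, 2 markers were higher with DESeq2 or with sex as a covariate (Lum and Dcn), 0 with no filter on low counts or with all 20 libraries together, and 0 to 1 with each library left out. Over all genes, DESeq2 called 335 higher and 396 lower in DDDA than in standard diet HBs, against 42 in all by edgeR, and 883 higher and 771 lower in DDDA than in standard diet livers, against 547 and 393 by edgeR. In CPM without TMM factors, 1 marker separated DDDA HBs from DDDA livers and 0 separated the HBs of the 2 diets. In deposited TPM, the differences of Reln (0.0055) and Rgs5 (0.0396) between HBs and livers on the standard diet changed sign, as did those of markers that were not called, Des on the standard diet (0.64, against −0.13 in TMM-scaled CPM) and on DDDA (0.49, against −0.29), and Pdgfra on DDDA (0.77, against −0.02). The median SD of the markers among DDDA HBs was 1.56 to 2.42 with each library left out, the lowest without DT2264. The cause of these changes was not tested.

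DT2264 and DT2277 were chosen for their high marker levels, so the direction of any fit without them is fixed in part by that choice, and its values are a description and not a test. Such fits put 0 markers higher and 7 lower in the other 3 DDDA HBs than in DDDA livers, against 25.0% of all genes higher and 23.1% lower, with the sign changed for Pdgfra (−1.73), Lum (−1.32) and Des (−1.74). They put 2 lower than in standard diet HBs (against 0.624% of all genes), Pdgfra (−2.12) and Lum (−2.24), and the same 2 for the difference in response to diet between HB and liver (−1.99 and −2.97, against 0.101% of all genes lower). Without DT2264 and DT2270, chosen in the same way, 0 markers were higher in DDDA HBs than in livers. Low levels rest on few counts, such as Lrat with 2 in DT2270 and Acta2 with 13 in the standard diet liver c4.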
